A study of Xenopus tropicalis with 9 samples.

Results

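Of 10336 genes in the deposited table, 56 were far higher in osteoblasts of the lower jaw than in any humerus cartilage library and were still present at a base level in immature chondrocytes. Members were chosen from the measured values. The lowest of the 3 osteoblast libraries had to reach 190.4 and at least 4 times the highest of the 6 chondrocyte libraries plus 9.52, and at least 1 immature library had to reach 9.52. The value 9.52 is 1 ppm (1 part per 1000000) of the mean library total and is called the base threshold. The height in bone and the presence in immature cartilage are therefore what the rule asked for, and no test is read from them.

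The libraries came from cells cut out of tissue sections by laser, from untreated, wild-type western clawed frogs (Xenopus tropicalis) at stage NF 57, which were 22 to 24 days past fertilisation and kept at 27 to 28 °C. There were 3 libraries each of immature chondrocytes and of mature chondrocytes, both of the humerus, and 3 of osteoblasts of the medial angulosplenial, a bone of the lower jaw. Cell type and skeletal site changed together between bone and cartilage and cannot be told apart. No label names the animal behind a library. P-values therefore reflect spread among these libraries, which may be technical.

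Osteoblasts and chondrocytes arise from related mesenchymal precursors. Chondrocytes build a matrix rich in type II collagen and proteoglycan, while osteoblasts secrete a matrix rich in type I collagen that then mineralises. In vertebrate limb cartilage, chondrocytes that mature and enlarge can switch on genes better known from bone. The table names genes by Ensembl identifiers alone, and the reference table used here pairs 0 of the 10336 with a symbol. No role is therefore given for any member, marker and pathway lists were not used here, and the labelled cell types were not checked against markers. Members are called by their rank in mean osteoblast value, from 1 to 56, with identifiers for 6 of them. Gene lengths were not used here, so the ranks order normalised read values, not numbers of transcripts. Ranks by share of the library total can differ.

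Deposited totals were 7594328 to 14055110 per library, which corresponded to an estimated 7160000 to 13070000 reads. The base threshold was worth an estimated 5.97 reads in mature replicate 2 and 13.0 reads in immature replicate 2. An exact 95% Poisson interval runs from 2.20 to 13.1 for 6 reads and from 6.92 to 22.2 for 13, and covers counting error only. Mature replicate 1 was closer to the immature libraries than to its own group. Across the 9080 genes tested, which are not independent replicates, its log2 values correlated at 0.946 to 0.985 with the immature libraries and at 0.817 and 0.848 with the other mature libraries. Immature libraries correlated with each other at 0.954 to 0.969, and osteoblast libraries at only 0.754 to 0.783.

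The members took a large share of the bone libraries and a small one of cartilage. Together they held 11.6%, 15.4% and 12.5% of the total of osteoblast replicates 1, 2 and 3, or 13.2% ± 1.98 (SD, n = 3). In immature replicates 1 to 3 the same genes summed to 850, 700 and 659 ppm of the library total. Mature replicate 1, at 767 ppm, lay among the immature libraries, and mature replicates 2 and 3 both stood at 2952 ppm. In bulk libraries, fewer cells of a type and less RNA per cell cannot be told apart.

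A single gene made up most of that sum in bone. ENSXETG00000003374, rank 1, stood at normalised values of 581043, 1085835 and 846056 in the osteoblast libraries and made up 63.5%, 79.7% and 62.0% of the members' sum there. It stood at 3026, 1896 and 1350 in the immature libraries and at 1558, 21627 and 27671 in the mature ones. The osteoblast libraries lay far above the rest, and mature replicates 2 and 3 lay above all immature libraries and mature replicate 1. Without rank 1, the other 55 members summed to 42273, 31234 and 47634 ppm in osteoblast replicates 1 to 3 and to 487 ± 26.0 ppm (SD, n = 3) in immature chondrocytes.

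**Figure D1:**
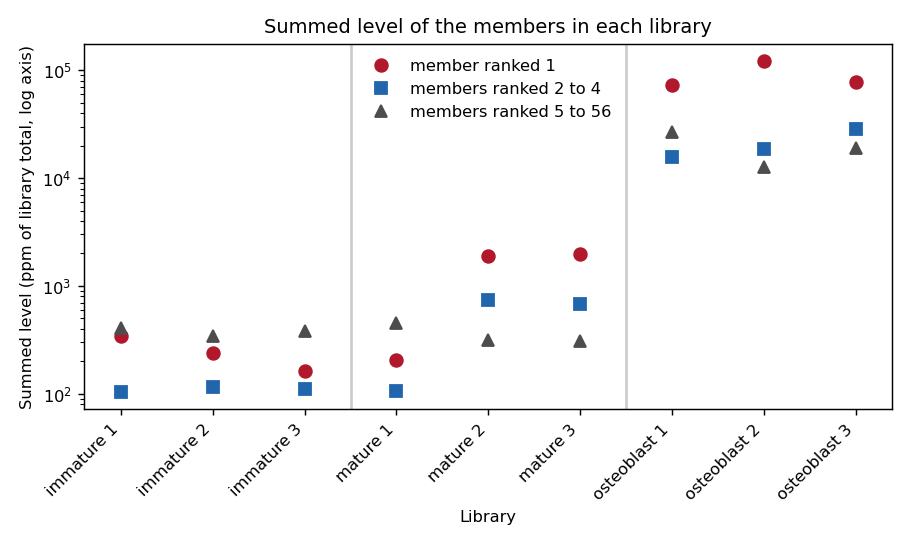
Summed level of rank 1, of ranks 2 to 4 and of ranks 5 to 56 in each of the 9 libraries, in ppm of the library's own total on a log axis. Ranks 1 to 4 stand higher in mature replicates 2 and 3 than in the other 4 cartilage libraries, while ranks 5 to 56 lie between 308 and 456 ppm in all 6. The cut after rank 4 was made after the values were seen.

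The gene next in mean osteoblast share, ENSXETG00000010707, rank 2, stood at 61687, 73637 and 119277 in the osteoblast libraries. Its values were 669, 479 and 422 in the immature libraries and 389, 4736 and 6298 in the mature ones. As for rank 1, mature replicates 2 and 3 lay between the immature and the osteoblast levels, and mature replicate 1 did not.

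The height of the step from cartilage to bone differed widely among members. The lowest osteoblast value was 4.05 to 91.9 times the highest cartilage value plus 9.52, with a median of 8.67. There were 9 members under 5 times and 7 over 20 times. The widest gap was that of rank 6, at 12147, 11632 and 32472 in osteoblasts, 117, 92 and 64 in immature and 42, 13 and 24 in mature chondrocytes. The narrowest was that of rank 17, at 3321, 2234 and 2758 in osteoblasts, 160, 134 and 203 in immature and 311, 542 and 243 in mature chondrocytes. Fitted log2 differences from osteoblasts ranged from 2.95 to 11.75 against immature chondrocytes, with a median of 4.56. Against mature chondrocytes they ranged from 2.65 to 9.45, with a median of 4.89. In these contrasts limma called 56 of 56 members higher in osteoblasts (adjusted p under 0.05), where 7.79% of all tested genes were called higher than in immature and 7.21% higher than in mature chondrocytes. Both contrasts share the osteoblast libraries and were used by the rule, so nothing is read from these counts.

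The limits of the rule fell among closely spaced genes. Of the members, the lowest osteoblast minima were 213 and 219, and 15 genes that met the other conditions fell short of 190.4, with 182 and 179 nearest to it. The ratio to the highest cartilage value plus 9.52 was 4.05 and 4.28 for the members closest to the limit of 4. Genes that met the other conditions but not this one numbered 1865, and the 2 nearest stood just under the limit, the lower of them at 3.90. The highest immature value was 10 in the members at the limit of 9.52 and 9 in the nearest of 53 genes left out by that condition.

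**Figure D2:**
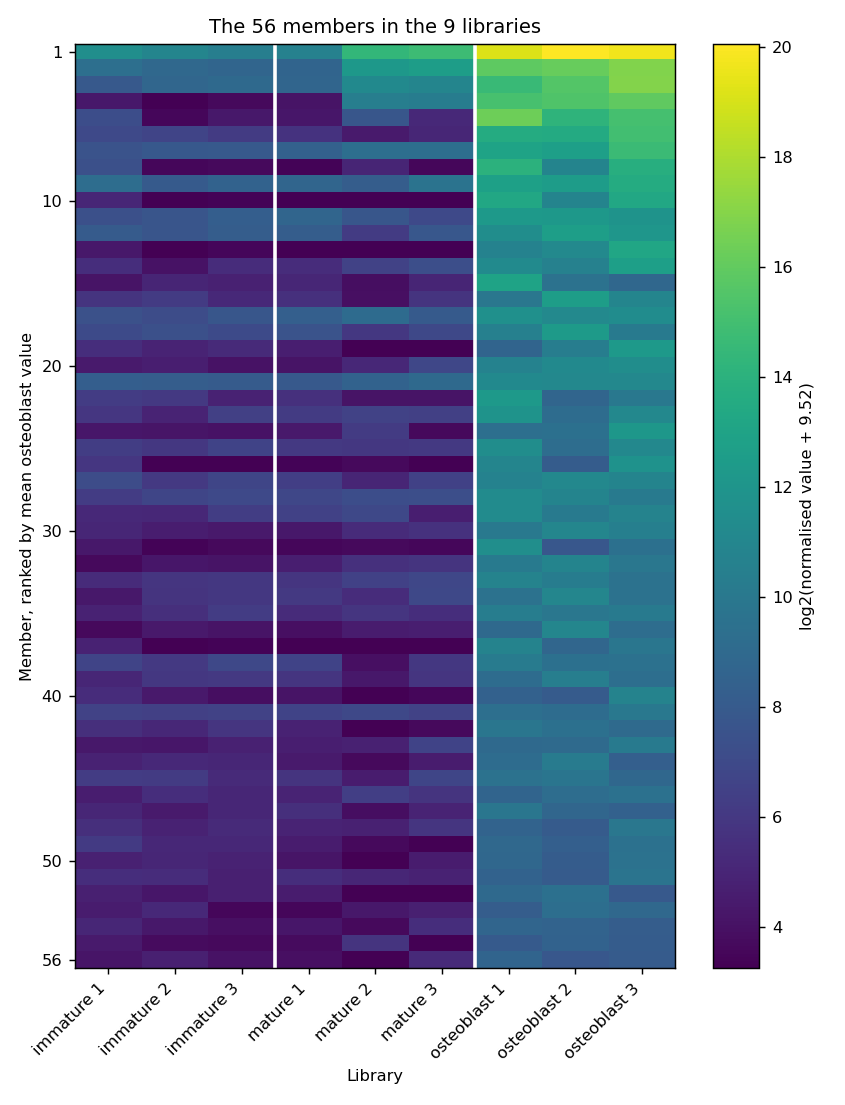
Log2 of the normalised value plus 9.52 for the 56 members (rows, ranked by mean osteoblast value) in the 9 libraries (columns), with white lines between immature, mature and osteoblast libraries. Members near the top are brightest in osteoblasts, and ranks 1 to 4 are brighter in mature replicates 2 and 3 than in the other cartilage libraries.

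Within bone, members varied between libraries in several ways. The highest osteoblast library exceeded the lowest 1.11-fold to 17.6-fold, with a median of 2.51-fold. There were 19 members with over 4-fold between them and 19 with under 2-fold. Rank 21 was the steadiest, at 2403, 2184 and 2155. Rank 15 was the most uneven, at 8207, 763 and 466, although its cartilage values of 5 to 23 were all low. The median SD of a member among osteoblast libraries was 0.71 on the log2 scale, against 0.97 for all tested genes, and the rule's demand on the lowest osteoblast library favours a small spread. Osteoblast replicate 1 was the highest of its group for 21 members, replicate 2 for 15 and replicate 3 for 20. These were 37.5%, 26.8% and 35.7%, against 30.7%, 32.7% and 36.6% of all tested genes. Replicate 2 was the lowest for 24 of 56, or 42.9%, against 29.2% of all tested genes. Replicate 1 was the lowest for 32.1%, against 45.5%. The rule acts on the lowest osteoblast library and library totals differ, so nothing is read from these orders.

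The immature base level was shared by all 3 libraries for most members. There were 37 members at or above the base threshold in all 3 immature libraries, 7 in 2 of them and 12 in 1. The 37 were 66.1% of the members, against 82.3% of all tested genes. Tested genes had to reach the base threshold in at least 3 libraries of any group. Every member did so in osteoblasts alone. Genes low in bone had to do so in cartilage, which can raise the second share, so nothing is read from the gap. A member is called present in a library where it reached the threshold, so values just under it do not count. Over all 56, the median value was 34.0, 25.5 and 26.5 in immature replicates 1, 2 and 3, and the highest was that of rank 1. The 37 members present in all 3 had immature means of 13.0 to 2091, with a median of 47.0. Their median SD among immature libraries was 0.38 on the log2 scale, against 0.34 for all tested genes. Rank 41 had the narrowest spread of the 56 in immature chondrocytes, at 86, 75 and 85, and stood at 91, 108 and 86 in mature chondrocytes. Rank 21 stood at 302, 289 and 256 in the immature and 233, 368 and 494 in the mature libraries. Its mature replicates 2 and 3 lay above every immature library, and mature replicate 1 lay below them.

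For the other members the base level often rested on immature replicate 1. Of the 12 members that reached the base threshold in 1 immature library, 9 did so in replicate 1, 3 in replicate 2 and 0 in replicate 3. The 3 in replicate 2, ranks 32, 36 and 56, held 8, 8 and 7 in replicate 3, just under the threshold. The 9 were 16.1% of the members, against 1.32% of all tested genes, a share that the condition on immature libraries can itself raise. In 7 of these 9, replicates 2 and 3 held values of 3 or less. Rank 24, by contrast, stood at 10, 9 and 7 in immature replicates 1 to 3, so its level did not rest on replicate 1. Rank 8 stood at 152 in immature replicate 1 and at 2 and 3 in replicates 2 and 3, at 1, 22 and 2 in mature chondrocytes, and at 17098, 1830 and 14119 in osteoblasts. Rank 10 stood at 24, 0 and 1 in immature chondrocytes, at 0 in all 3 mature libraries, and at 10414, 1846 and 10086 in osteoblasts. Rank 26 stood at 51, 0 and 0 in immature chondrocytes, at 1, 3 and 0 in mature chondrocytes, and at 1887, 271 and 3515 in osteoblasts. In ranks 8, 10 and 26 immature replicate 1 was the highest of the cartilage libraries. In ranks 4, 24 and 55, also among the 9, mature replicate 2 was instead the highest, at 1383, 64 and 46. There were 4 of the 9 that held fewer than 12 in immature replicate 1, close to the threshold of 9.52. Rank 5, present in 2 immature libraries, stood at 143, 2 and 11 there and at 10, 210 and 27 in mature chondrocytes, so both cartilage groups held 1 library far above their others. Immature replicate 1 was the highest immature library for 29 of 56 members, or 51.8%, against 36.6% of all tested genes. The condition on immature libraries can itself select such genes. Among the 37 members present in all 3 libraries, replicate 1 was the highest for 16 and replicate 3 for 16. Applied without immature replicate 1, the rule gave 48 genes, of which 47 were among the 56.

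**Figure D3:**
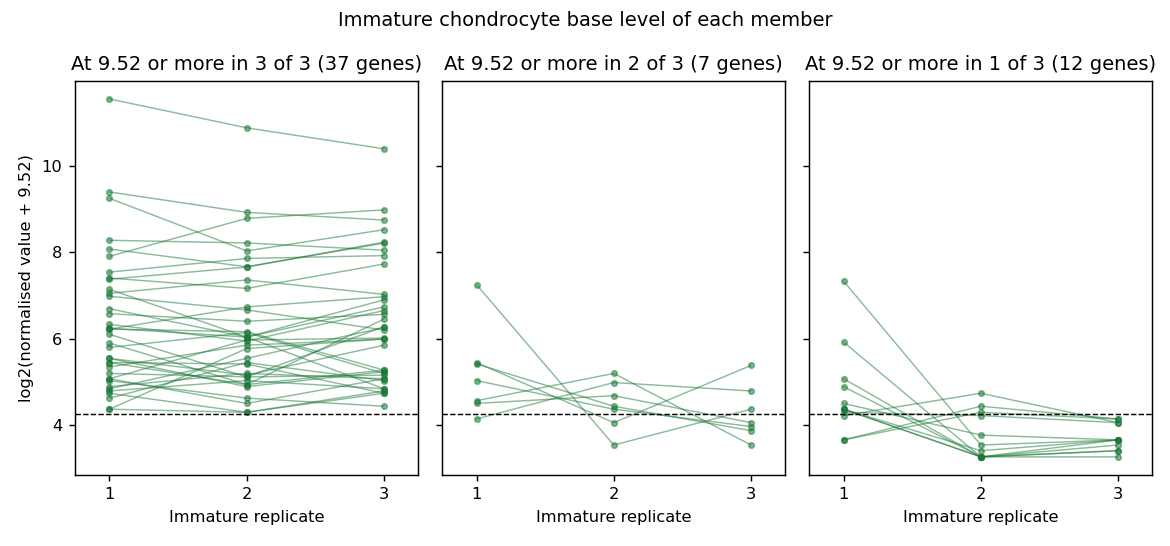
Log2 of the normalised value plus 9.52 in the 3 immature libraries, with 1 line per member, in panels for members at 9.52 or more in 3, 2 or 1 of the libraries (37, 7 and 12 genes). The dashed line marks the threshold of 9.52, and most lines in the right panel cross it in replicate 1 alone.

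The cartilage level was not a fixed fraction of the bone level. In immature replicate 1 a member's value was 0.0230% to 13.4% of its own mean osteoblast value, with a median of 2.64%. The medians in immature replicates 2 and 3 were 2.20% and 2.49%, and in mature replicates 1, 2 and 3 they were 2.18%, 2.02% and 3.22%. The members with the most reads in bone had low fractions in immature cartilage, with a median of 0.354% for ranks 1 to 4 in immature replicate 1 against 2.83% for ranks 5 to 56. The same osteoblast mean sets the rank and divides the fraction, which by itself tends to give the top ranks low fractions, so nothing is read from that order. The limit of 4 times caps the fraction, so its upper end is set by the rule. Some members reached the base threshold in immature replicate 1 but in no other immature library. Their fraction in that replicate was 0.0230% to 4.46%.

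**Figure D4:**
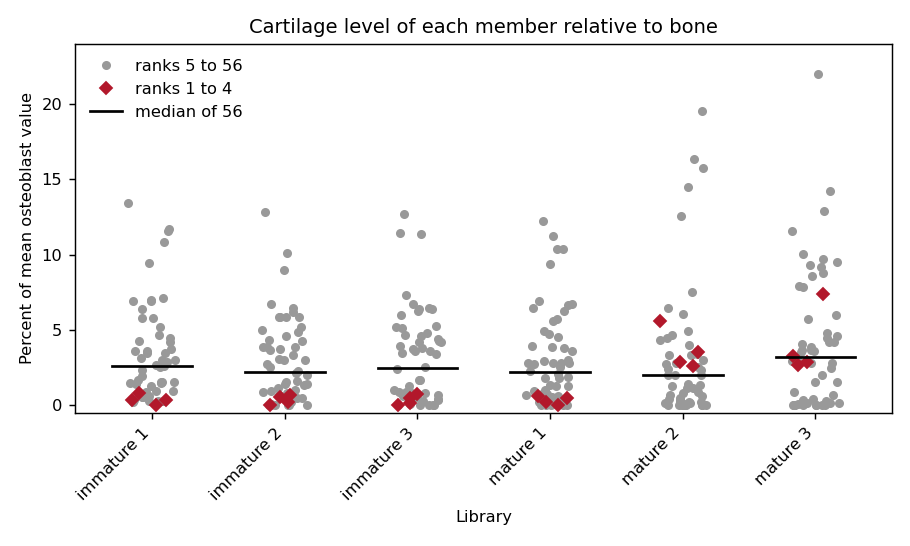
Value of each member in each cartilage library as a percent of its mean osteoblast value, with ranks 1 to 4 as red diamonds, ranks 5 to 56 as grey circles spread sideways at random and the median of the 56 as a black bar. Ranks 1 to 4 lie under 1% in the immature libraries and mature replicate 1, and at 2.58% to 7.42% in mature replicates 2 and 3.

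Mature and immature chondrocytes were compared to see whether these genes change as cartilage matures. The rule did not set this contrast, although its condition on immature libraries leans toward genes high there. Its limit on the highest cartilage value also leaves out genes with a high mature library. Mature libraries varied more, with a median SD of 0.67 (log2) over all tested genes, against 0.34 for immature ones. Members entered the test through osteoblasts alone, so their mature values could be as low as 0. The choice of members can thus shape the counts and medians that follow. No member passed the test. With limma, 0 of 56 members had an adjusted p under 0.05, and the lowest adjusted p was 0.964, where 0 of 9080 tested genes, or 0%, were called. At an unadjusted p under 0.05 there were 9 members, or 16.1%, against 5.03% of all tested genes. Of these, 6 were higher in mature chondrocytes, where 2.53% of tested genes were, and 3 were lower, where 2.5% were. On average 27 members (48.2%) were higher in mature chondrocytes and 29 (51.8%) lower, where 43.7% and 55.6% of all tested genes were. The median log2 difference was -0.02 against -0.09 for all tested genes. With every library brought to the same total, 21 (37.5%) were higher and 35 (62.5%) lower, against 26.6% and 72.7% of tested genes. The medians were then -0.29 for members and -0.37 for all tested genes. The median standard error of a member's difference was 0.69 on the log2 scale.

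The 4 members with the highest mean values in bone had the 4 largest upward differences, and these came from mature replicates 2 and 3. The match depends on the measure used to rank. By mean share of the osteoblast totals, rank 5, at 0.524%, would stand before rank 4, at 0.513%. The mature minus immature difference of rank 5 was only 0.71 (log2). The limit of 4 times ties the highest cartilage value allowed to the bone level. High ranks thus had more room to rise, so nothing is read from this order. ENSXETG00000003374 averaged 2091 ± 855 in immature and 16952 ± 13669.8 in mature chondrocytes (SD, n = 3). On the log2 scale it was higher by 2.30 ± 0.85 (SE) in mature chondrocytes, with an adjusted p of 0.964 in limma. ENSXETG00000010707 averaged 523 ± 129 and 3808 ± 3062 (SD, n = 3), and was higher by 2.13 ± 0.79 (SE, log2), again with an adjusted p of 0.964 in limma. Ranks 3 and 4 were singled out after their values were seen. Rank 3 stood at 231, 434 and 499 in immature, 407, 2357 and 1906 in mature chondrocytes and 25840, 48308 and 125924 in osteoblasts. Rank 4 stood at 11, 0 and 3 in immature, 8, 1383 and 1277 in mature chondrocytes and 36162, 43072 and 64427 in osteoblasts. In all 4 genes mature replicate 1 lay within the immature range or, in rank 2, just below it, so the groups overlapped. In mature replicates 2 and 3 the 4 genes stood at 2.58% to 7.42% of their osteoblast means. Other members reached higher fractions there. The medians were 3.21% and 3.08% for ranks 1 to 4 in mature replicates 2 and 3, and 1.39% and 3.33% for ranks 5 to 56, which reached 19.6% and 22.0%. With every library brought to the same total, the upward log2 differences of ranks 1 to 4 were smaller, at 1.94, 1.77, 1.35 and 4.29.

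The sum of ranks 5 to 56 did not set mature apart from immature chondrocytes. Summed over ranks 5 to 56, the immature libraries held 405, 342 and 384 ppm, and the mature libraries 456, 315 and 308 ppm. The means were 377 ± 32.2 and 360 ± 83.6 ppm (SD, n = 3), so the groups overlapped. On the authors' scale the mature mean was instead the higher, at 3797 ± 469 against 3152 ± 453 (SD, n = 3), so the order turns with the scaling.

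In 9 members the 3 mature and the 3 immature libraries did not overlap. There were 3 higher in mature chondrocytes, where 4.57% of tested genes behaved so, and 6 lower, where 5.94% did. The shares of the 56 were 5.36% and 10.7%. With every library brought to the same total, the counts of members were again 3 and 6, against 2.89% and 8.2% of tested genes. Of the 3 higher members, ENSXETG00000001697, rank 32, had the largest difference. It stood at 3, 10 and 8 in immature, 16, 38 and 46 in mature chondrocytes and 1084, 1811 and 938 in osteoblasts. The mature level exceeded the immature one by 1.33 ± 0.63 (SE) on the log2 scale, with an adjusted p of 0.987 in limma. ENSXETG00000027478, rank 7, stood at 177, 223 and 234 in immature, 347, 639 and 629 in mature chondrocytes and 8017, 6841 and 26365 in osteoblasts. Here the excess was 1.27 ± 0.52 (SE, log2), with an adjusted p of 0.964 in limma. With every library brought to the same total, the excess was 1.09 for rank 32 and 0.92 for rank 7. All 3 mature libraries, replicate 1 included, lay above the immature ones in these genes.

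Among the lower ones, ENSXETG00000015102, rank 49, stood at 59, 25 and 26 in immature and 14, 3 and 0 in mature chondrocytes, and at 480, 311 and 718 in osteoblasts. Mature minus immature, this was -1.64 ± 0.68 (SE, log2), with an adjusted p of 0.964 in limma. ENSXETG00000020323, rank 42, stood at 37, 26 and 48 in immature, 20, 0 and 3 in mature chondrocytes and 921, 689 and 535 in osteoblasts. Here the difference was -1.59 ± 0.67 (SE, log2), with an adjusted p of 0.964 in limma. With every library brought to the same total, the differences were -1.74 for rank 49 and -1.70 for rank 42. In both genes mature replicate 1 lay nearest to the immature libraries, and mature replicates 2 and 3 were at or near 0. The rule put every member highest in bone, and both genes were picked for their low mature values, so nothing is read from that order. The step between immature and mature cartilage fell short of the test. Mature replicates 2 and 3 also listed the most genes at 0 among cartilage libraries, 2014 and 1430 against 759 to 1026 in the other 4, and the part of this in the low values was not tested.

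**Figure D5:**
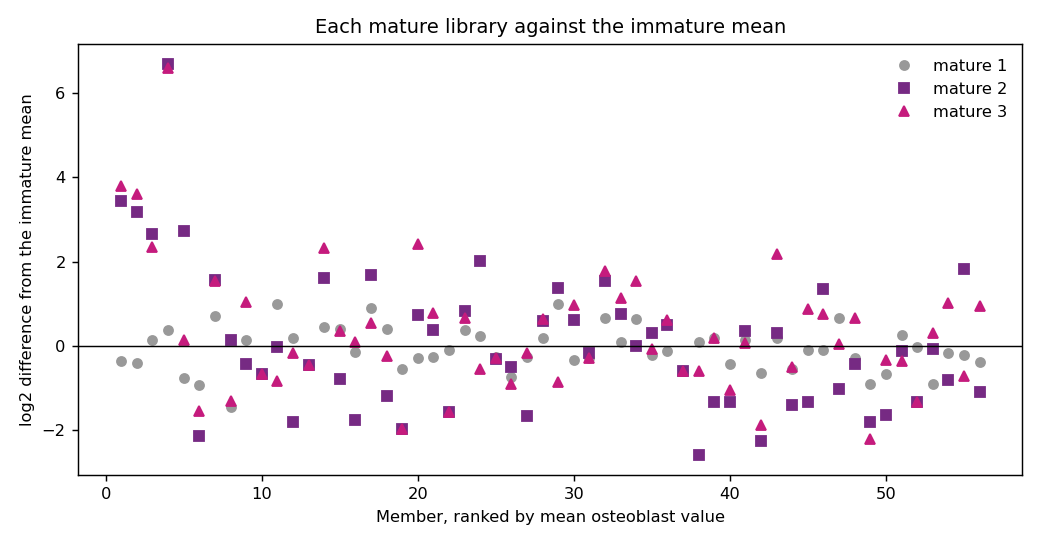
Log2 difference of each mature library from the mean of the 3 immature libraries, for the 56 members by rank in mean osteoblast value. Mature replicates 2 and 3 lie above 2 for ranks 1 to 4, and mature replicate 1 stays near 0 for these genes.

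The absence of calls did not hold with library weights, given below, or without mature replicate 1. Without it, limma called 4 members higher and 0 lower in mature chondrocytes (adjusted p under 0.05), where 1.67% of all tested genes were called higher and 1.28% lower. The 4 were ranks 1 to 4, where the limit of 4 times allowed high mature values. ENSXETG00000003374 was then higher by 3.62 ± 0.47 (SE, log2), and its adjusted p in limma was 0.00218, where all settings tried spanned 0.00218 to 1. ENSXETG00000010707 was higher by 3.39 ± 0.42 (SE, log2), with an adjusted p of 0.00196 in limma and a span of 0.00196 to 1. Rank 3 was higher by 2.49 ± 0.60 (SE, log2), with an adjusted p of 0.0499 in limma, just inside the threshold, and a span of 0.0267 to 1. Rank 4 was higher by 6.63 ± 0.47 (SE, log2), a value that depends on the constant added before the log, with an adjusted p of 0.000102 in limma and a span of 0.000102 to 1. Without mature replicate 1, only mature replicates 2 and 3 remained, and fewer libraries make a lack of overlap more common for any gene. The groups then did not overlap for 15 members that were higher, or 26.8%, and 11 that were lower, or 19.6%. The shares of tested genes were 18.4% and 25.8%. With libraries brought to the same total these counts were 10 and 16, or 17.9% and 28.6%, against 9.41% and 44.6% of tested genes.

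Genes that met both osteoblast conditions without the immature base level had lower median values in bone than the members, with overlapping ranges. There were 53 such genes, of which 22 reached 9.52 in a mature library alone and 31 stayed under it in all 6 cartilage libraries. The median of the mean osteoblast value was 1838 over the 56 members, 874 over the 22 and 822 over the 31. These means ran from 403 to 6619 over the 22 and from 362 to 8858 over the 31. The lowest mean of a member was 289. In osteoblasts the 22 summed to 0.323% ± 0.125 and the 31 to 0.515% ± 0.283 of the library total (SD, n = 3), against 13.2% for the members. The sets differ in size, and most of the members' share was rank 1, with 9.14%. Ranks 5 to 56 together held 1.94%. The median log2 difference between mature and immature chondrocytes was 0.61 for the 22, which the condition on cartilage itself favours, and -0.05 for the 31, against -0.02 for the members. Osteoblast replicate 2 was the lowest osteoblast library for 20 of the 31 genes, for 10 of the 22 and for 24 of the 56 members. These sets were cut from the same values, so their differences are a description and were not tested.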

How the data were processed

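RNA of 9 laser-captured samples was sequenced. Per the labels' protocols it was isolated with a kit for small samples, treated with DNase and amplified in 1 round, which can widen the spread of rare transcripts. The authors used STAR 2.5.3a, Trimmomatic 0.36 and edgeR, per the submitters' processing notes. The sources used here do not state the genome build, annotation, counting or scaling. The deposited values were treated as a score, read counts that the authors scaled per library and rounded, since several columns skip whole numbers at regular steps. The step giving the highest likelihood estimated what 1 read was worth.

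Values were analysed as log2(value + 9.52), which understates differences of low genes. Genes at 9.52 or more in at least 3 libraries were tested, 9080 in all, in 1 limma model of 3 groups with a variance trend (limma 3.58.1, R 4.3.3), checked on simulated data. P-values were adjusted over all tested genes by Benjamini-Hochberg. Because exact reads were not recovered, no count model was run. Members and tests were chosen with earlier results of these data known. The rule for identifiers took the 2 members with the highest mean osteoblast share, and the 2 most upward and 2 most downward in mature chondrocytes among those without overlap. Python 3.11.15, numpy 2.4.6, pandas 2.3.3, scipy 1.17.1 and matplotlib 3.10.9 were used.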

Additional observations from a re-analysis of the deposited data

How the results depend on the processing

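Between mature and immature chondrocytes, limma with library weights called 2.64% of all tested genes higher and 2.51% lower (adjusted p under 0.05). The count of members called, 0 in the main fit, was 6 with these weights, 5 higher and 1 lower. It was 0 to 4 when each library was left out, with 4 only without mature replicate 1. It was 0 in the other planned settings, among them the stricter threshold of 0.01, which could give only 0, and a replicate block by the number in the sample title, which gave 0 with a consensus correlation of 0.193. Each pair of groups shares 1 title number, so the block pairs few libraries. The number of members was 37 when all 3 immature libraries had to reach the threshold, and 48 to 96 when each library was left out, with 96, all 56 included, without osteoblast replicate 2. It was 42 to 82 under the other limits and scaling. The median log2 difference of -0.02 became -0.29 with libraries brought to the same total and ran from -0.18 without mature replicate 3 to 0.086 without mature replicate 2. The counts of members called higher in osteoblasts were 56 in every setting run, which the rule makes likely. No difference of the 6 identifiers or of ranks 3 and 4 changed direction. With library weights the 5 higher calls were ranks 1 to 4 and ENSXETG00000027478, which then stood 1.36 higher on the log2 scale (adjusted p of 0.0415 in limma, with a span of 0.0415 to 1 over all settings), and the lower call was rank 6. The cause of these changes was not tested. Readings of the contrasts with osteoblasts, the scaling of the counts without overlap and ranks 3 and 4 were added after seeing the data.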
